A study of Papio anubis and Macaca mulatta with 6 samples.

Results

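The genes described here encode receptors through which pituitary, steroid and thyroid hormones act on the testis. They were the receptors for follicle-stimulating hormone (FSHR) and luteinizing hormone (LHCGR), the estrogen receptors ESR1 and ESR2, the glucocorticoid receptor NR3C1, the thyroid hormone receptors THRA and THRB, and the receptors for prolactin (PRLR) and growth hormone (GHR). Each was found by its symbol in the gene list of each species, which gave 9 of 34178 genes in the olive baboon and 8 of 21356 genes in the rhesus monkey. LHCGR was not analysed here in the rhesus monkey. Their unique molecular identifiers (UMIs, each standing for one captured RNA molecule) were described across testis cell types, each species alone.

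FSHR and LHCGR are G protein-coupled receptors that raise cyclic AMP. In the testis FSHR is known from Sertoli cells, the somatic cells that line the tubules and nurse the germ cells, and LHCGR from Leydig cells, which make androgen. ESR1, ESR2, NR3C1, THRA and THRB are nuclear receptors that bind DNA once their hormone has entered the cell, while PRLR and GHR are cytokine-type receptors that signal through JAK2 and STAT5. For much of the time before puberty pituitary gonadotropin is low. Sertoli cells still divide before puberty, and thyroid hormone is known as one of the signals that end this proliferation.

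Dissociated testis cells of 4 immature animals were examined in 6 Chromium droplet libraries. The groups were the 2 species, Papio anubis (libraries 1A and 1B of animal 1 and one library of animal 2) and Macaca mulatta (one library of animal 1 and libraries 2A and 2B of animal 2). All animals were untreated, of no stated genotype, and their testes were taken at necropsy. The sources give the ages of 15 and 20 months to the pair of one species and newborn and 26 months to the other, but do not agree on which species is which, so that age was not used. The tissue was digested in 2 steps, and the wash after the first was meant to carry interstitial cells away, so the proportions of cell types are those of the suspension and not of the testis.

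The libraries held 16875294 to 49803025 UMIs and yielded 23046 baboon and 26480 rhesus cells, which held 57.7% to 87.3% of the UMIs of their library. Any pair of libraries shared 1 to 145 cell barcodes, at most 1.65% of the cells of a library. Clustering gave 12 baboon and 16 rhesus clusters, which were named from lists of marker genes. The largest classes were Sertoli-like cells (17363 baboon and 8219 rhesus cells) and interstitial stroma-like cells (4724 and 15307), and smaller ones were germ-like (304 and 577), endothelial-like (379 and 752), pericyte-like (155 and 415) and macrophage-like cells (121 and 221). Leydig-like (561), peritubular myoid-like (99) and rete or duct epithelium-like cells (56) were named in the rhesus monkey alone, where 273 cells stayed unnamed. The 9 Sertoli markers summed to 7955 and 8773 CPM in Sertoli-like cells of the baboon and the rhesus monkey, and the stroma markers to 11024 and 9850 in stroma-like cells, each well above any other list there. CPM stands for the UMIs of a gene scaled to 1000000 UMIs of the class, summed over its cells. Some small classes also held many UMIs of other lists. The germ-like cells of the baboon held 1901 CPM of Sertoli markers, near their 1961 of germ cell markers, and rhesus ones 729 beside 1001. Sertoli markers were not particular to germ-like cells. They stood at 2368 CPM in baboon macrophage-like, 1432 in pericyte-like, 1296 in endothelial-like and 1130 in stroma-like cells. In the other rhesus classes outside Sertoli-like cells they stood at 435 to 1338 CPM. Baboon pericyte-like cells held 6346 CPM of peritubular myoid markers beside 6945 of their own, and baboon macrophage-like cells 3039 of lymphoid markers (9 of 9 seen) beside 6657. The rhesus rete or duct epithelium-like cells held more of the peritubular myoid list (3087 CPM) than of their own (1168). Rhesus pericyte-like cells held 3711 CPM of stroma markers beside 6949 of their own. The library of baboon animal 2 was made with version 3 chemistry, and its Sertoli-like cells had a median of 4163 UMIs against 1980 in animal 1, so in the baboon the animal and the chemistry cannot be told apart.

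FSHR, which conveys the pituitary signal to Sertoli cells, was highest in Sertoli-like cells in both species. It lies at chr14:49252907-49445816 in the baboon (Panubis1.0) and at chr13:59619221-59810269 on the plus strand in the rhesus monkey (Mmul_10), where no other annotated gene overlapped it. The 250 bases before its annotated start, from RefSeq on Mmul_10 (chr13:59618971-59619220, plus strand), are printed because FSHR was the receptor whose excess in Sertoli-like cells passed the test in both species. The capitals mark CACGTG, an E-box that reads the same on both strands.
FSHR upstream: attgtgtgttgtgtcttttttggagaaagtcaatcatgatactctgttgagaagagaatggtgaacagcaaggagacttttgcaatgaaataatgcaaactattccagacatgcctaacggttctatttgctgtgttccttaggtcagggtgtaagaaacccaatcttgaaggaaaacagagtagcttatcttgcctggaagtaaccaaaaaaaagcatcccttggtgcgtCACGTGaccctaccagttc
The motif occurred 1 time, with its first base at position -19 relative to the start. Of 20782 protein-coding promoter windows of the same length, 1340 (6.45%) held it, and a match describes the letters only.

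The levels come from tags near the 3′ end of transcripts and are compared between classes, not between genes. In baboon Sertoli-like cells FSHR stood at 13.6 CPM in animal 1 (13.9 and 13.2 in libraries 1A and 1B) and at 40.0 in animal 2, or 26.8 ± 18.6 CPM (SD, n = 2 animals). In all other baboon cells it stood at 3.72 and 4.38 CPM. In rhesus Sertoli-like cells it was 19.0 CPM in animal 1 and 27.4 in animal 2 (26.8 and 28.1 in libraries 2A and 2B), or 23.2 ± 5.95 CPM (SD, n = 2 animals), against 1.51 and 1.22 in all other cells. Both animals of each species lay above every animal's value in the other named classes, and the 2 libraries of one animal lay close together. The baboon animals differed from each other beyond counting error, with exact 95% Poisson intervals of 12.4 to 15.0 and 37.9 to 42.1 CPM.

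With UMIs summed per animal, FSHR was higher in Sertoli-like cells by 2.89 ± 0.60 on the log2 scale in the baboon (SE, edgeR adjusted p = 0.0314) and by 4.04 ± 0.40 in the rhesus monkey (edgeR adjusted p = 0.0150). The baboon call was lost under 3 alternatives. It was 2.13 with cells taken by a UMI cutoff alone (edgeR adjusted p = 0.0703), 1.73 at the finer clustering resolution of 0.8 (0.183 by the same test) and 1.72 when each cell was classed by its own markers (0.157 by the same test). FSHR was lower in rhesus stroma-like cells by a log2 value of -3.31 ± 0.42 (SE, edgeR adjusted p = 0.0388, and 0.0530 with cells classed by their own markers). In baboon stroma-like cells its value was -2.72 (edgeR adjusted p = 0.0843, and 0.00404 with the animal as a block). The comparisons of one class with the rest share cells and are not independent of each other.

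Few cells held an FSHR UMI. Thinned to 1000 UMIs each, 1.91% of 15692 baboon Sertoli-like cells had one, against 0.149% of 4027 stroma-like cells, which should lack the receptor. By animal, these baboon shares were 1.30% and 3.67% of Sertoli-like cells and 0.461% and 0% of stroma-like cells. The rhesus shares were 2.20% of 7049 Sertoli-like cells and 0.155% of 12288 stroma-like cells. In the single rhesus animals they were 1.43% and 3.01%, and 0.148% and 0.159%. Unthinned, the shares over both animals were 7.88% and 0.550% in the baboon (median 2219 and 1615.5 UMIs per cell). They were 4.31% and 0.216% in the rhesus monkey (1641 and 1416). Baboon droplets without cells held FSHR at 14.7 CPM and rhesus ones at 6.30. Reckoned from markers that Sertoli-like cells should lack, this free RNA could have given at most 2.23% of the FSHR UMIs in baboon Sertoli-like cells and 3.75% in rhesus ones. The same reckoning gave up to 87.1% and 63.3% in stroma-like cells and up to 33.0% and 91.9% in germ-like cells. These are upper limits, and the part of free RNA in the FSHR values of those classes was not tested. Baboon germ-like cells held FSHR at 6.56 CPM in sum, on 2 UMIs in animal 1 and 16 in animal 2. The limit pools the libraries, and droplets without cells of animal 2 held 32.5 CPM. These germ-like cells also held the Sertoli markers given above, as did the other baboon classes.

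FSHR also varied within the Sertoli-like class. Rhesus cluster 3 held 28.7 CPM in animal 1 and 34.7 in animal 2, and cluster 1 held 10.5 and 15.0. These 2 clusters did not overlap over the animals. Cluster 1 held a median of 1451 UMIs per cell and cluster 3 held 2030. Relative to the cluster where each is highest, the Sertoli markers averaged 0.542 in cluster 1 and 0.873 in cluster 3. The erythroid markers averaged 0.716 in cluster 1, but none of them met the naming rule there. Whether depth or marker level bears on the FSHR difference was not tested. In the baboon, cluster 3, whose leading genes encode ribosomal proteins, held 7.27 CPM in animal 1 and 30.2 in animal 2. The other baboon Sertoli-like clusters held 12.6 to 16.6 CPM in animal 1 and 35.9 to 45.0 in animal 2, so that cluster 3 was the lowest in each animal, with overlapping counting intervals in animal 2. The receptor genes were left out of the clustering, but the clusters were made from these same cells, so these differences carry no test.

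**Figure D1:**
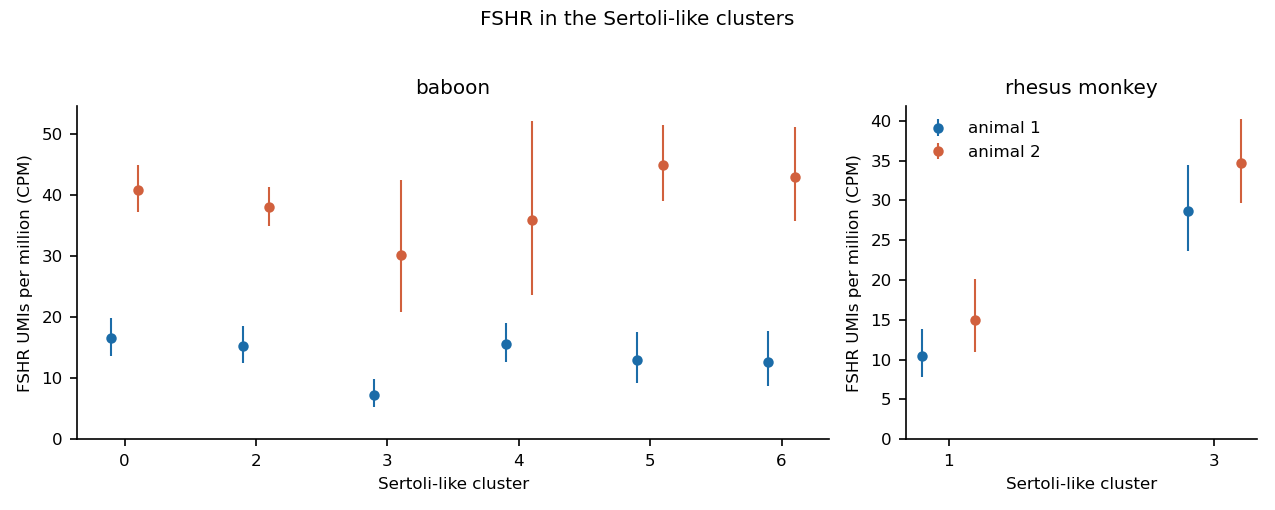
FSHR level (CPM) in each Sertoli-like cluster of the baboon and the rhesus monkey, one point per animal with its exact 95% Poisson interval. Among rhesus cells cluster 3 (28.7 and 34.7) lies above cluster 1 (10.5 and 15.0) in both animals, and in the baboon cluster 3 (7.27 and 30.2) is the lowest in each animal.

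LHCGR, the luteinizing hormone receptor, was found in very few cells. It lies at chr14:48995632-49058515 in the baboon (Panubis1.0), and 33 UMIs were seen among all baboon cells. Stroma-like cells held 28 of them, 2 in animal 1 (0.735 CPM) and 26 in animal 2 (4.25 CPM), and Sertoli-like cells held 0 and 5 (0 and 0.146 CPM). Stroma-like cells were above Sertoli-like cells in both animals, although nearly all UMIs came from animal 2. In germ-like cells 0 UMIs of 2743760 allow up to 1.09 CPM, counting error only. LHCGR passed the filter on low counts in the stroma-like comparison alone, where it is high, so its fitted value there (log2 5.33 ± 1.32, SE) is a description of these counts and carries no test.

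Within the stroma-like class, 26 of the 28 UMIs fell in cluster 7, in 18 of its cells, 1 of animal 1 and 17 of animal 2. These cells were chosen after their values were seen and get no test. Of the 4 Leydig cell markers found in the baboon, INSL3, a Leydig cell peptide hormone, had a UMI in 61.1% of the 18 cells and in 4.02% of the other 1145 cells of the cluster. STAR, which carries cholesterol into mitochondria, had one in 61.1% and 8.21%. The steroid dehydrogenase HSD3B2 had one in 44.4% and 16.7%, and HSD17B3, which makes testosterone, in 5.56% and 1.92%. The LHCGR cells also held more UMIs (median 4539 against 1987), and the HSD17B3 share among them is 1 cell. Per UMI, INSL3 (7082 against 342 CPM) and STAR (1091 against 73.4) stood far apart between the LHCGR cells and the rest of the cluster, while HSD3B2 (131 against 114 CPM) and HSD17B3 (13.1 against 9.17) lay close together.

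No baboon cluster was named Leydig-like, but 25 single cells were Leydig-like by their own markers. Of these 7 held LHCGR (28.0%), at 134 CPM, against 1.60 CPM in the other 4700 stroma-like cells and 0.0764 in Sertoli-like cells. INSL3 and STAR were among the markers that picked these cells and LHCGR was not. HSD3B2 and HSD17B3 were themselves found in 18.0% and 29.8% of Sertoli-like cells, so these markers do not mark Leydig cells alone in these suspensions. Doublets were marked in 3 of the 18 cells and 4 of the 25, against 67 of the other 1145 cells of the cluster.

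**Figure D2:**
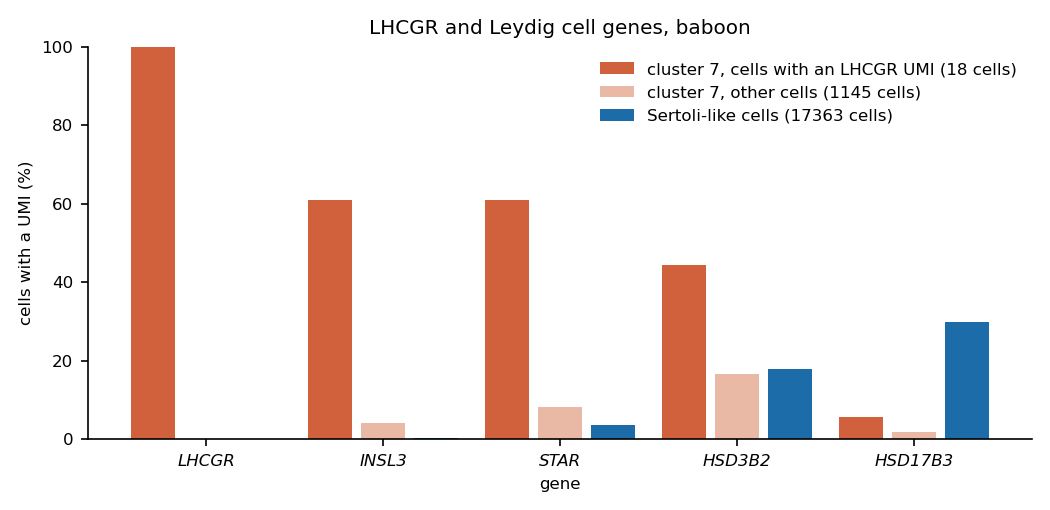
Share of baboon cells with a UMI of LHCGR and of each of the 4 Leydig cell markers, in percent, for the 18 LHCGR cells of cluster 7, its other 1145 cells and the 17363 Sertoli-like cells. INSL3 and STAR are each found in 61.1% of the LHCGR cells and in 4.02% and 8.21% of the other cells of the cluster, and HSD17B3 is most often seen in Sertoli-like cells (29.8%).

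ESR1, estrogen receptor alpha, was highest in stroma-like cells in both species. It lies at chr6:110324713-110771780 (Panubis1.0) and chr4:57840167-58272369 on the plus strand (Mmul_10). Baboon stroma-like cells held 24.2 CPM in animal 1 (26.6 and 20.1 in libraries 1A and 1B) and 27.8 in animal 2, against 0.392 and 1.31 in all other cells. Rhesus stroma-like cells held 38.7 CPM in animal 1 and 14.1 in animal 2 (13.7 and 14.5 in libraries 2A and 2B), against 4.76 and 2.27. In both species the stroma-like class stood above all others in both animals. In rhesus animal 2, though, Leydig-like cells lay close to it, at 12.2 CPM on 10 UMIs. The rhesus animals differed beyond counting error (exact 95% Poisson intervals 34.9 to 42.9 and 12.2 to 16.2 CPM).

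The excess of ESR1 in stroma-like cells was 5.11 ± 0.62 on the log2 scale in the baboon (SE, edgeR adjusted p = 0.0218) and 3.04 ± 0.75 in the rhesus monkey (edgeR adjusted p = 0.0888, and 0.00353 with the animal as a block). Sertoli-like cells held 0.225 and 1.25 CPM in the baboon and 3.89 and 1.50 in the rhesus monkey. ESR1 was there lower by a log2 value of -4.34 ± 0.86 in the baboon (SE, edgeR adjusted p = 0.0276, lost at the resolution of 0.8 at 0.0731). In both baboon comparisons ESR1 passed the filter on low counts only because of the sums where it is high. Both baboon p-values thus describe these counts and are no independent support. In rhesus Sertoli-like cells the value was -2.88 (edgeR adjusted p = 0.0872, and 0.000480 with the animal as a block), and free RNA could have given up to 34.8% of those UMIs. Rhesus germ-like cells held 2.25 and 1.70 CPM on 3 and 1 UMIs, lower by a log2 value of -3.19 ± 0.84 (SE, edgeR adjusted p = 0.0300). After thinning, 2.38% of baboon and 2.47% of rhesus stroma-like cells held an ESR1 UMI, against 0.0956% and 0.284% of Sertoli-like cells. Next in the rhesus order were Leydig-like cells at 10.4 and 12.2 CPM on 13 and 10 UMIs. Their log2 value against all other cells was 0.16 ± 0.61 (SE, edgeR adjusted p = 0.958, and 0.841 with the animal as a block).

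ESR2, estrogen receptor beta, had another pattern, with its highest level in endothelial-like cells and the next in Sertoli-like cells. It lies at chr7:42250685-42322809 (Panubis1.0) and chr7:126306692-126375132 on the minus strand (Mmul_10), where an annotated pseudogene, LOC706952, overlaps it on the same strand and could share reads with it. Endothelial-like cells held 5.56 and 22.4 CPM in the baboon, on 4 and 21 UMIs, and 4.82 and 21.8 in the rhesus monkey, on 2 and 47 UMIs. Sertoli-like cells held 5.18 and 8.91 CPM in the baboon and 1.95 and 4.74 in the rhesus monkey. In animal 2 of each species the endothelial-like value was well above the Sertoli-like one, and in animal 1 of the baboon the 2 values lay close together. Libraries 2A and 2B of the rhesus monkey held 20.9 and 22.9 CPM in endothelial-like cells.

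The log2 value for endothelial-like cells was 3.30 ± 0.74 in the rhesus monkey (SE, edgeR adjusted p = 0.0650, 0.00448 with the animal as a block). In the baboon it was 1.21 ± 0.63 (SE, edgeR adjusted p = 0.280, and 0.0681 with the animal as a block). The rhesus cluster also held lymphoid markers at 593 CPM in sum, all 11 of 11 seen, against 4747 CPM for the 10 endothelial markers. Of its 752 cells 55 were lymphoid-like by their own markers. With such cells left out of every class, a choice made after seeing the data, the value was 3.38 (edgeR adjusted p = 0.0252). For Sertoli-like cells the log2 value was 1.18 ± 0.50 in the baboon (SE, edgeR adjusted p = 0.163, and 0.0218 with the animal as a block). In the rhesus monkey it was 0.63 ± 0.65 (SE, edgeR adjusted p = 0.599, and 0.312 with the animal as a block). Within rhesus Sertoli-like cells, cluster 3, higher in FSHR, held 2.94 and 7.09 CPM and cluster 1 held 1.08 and 0.680. In rhesus germ-like cells 0 ESR2 UMIs of 1917559 allow up to 1.56 CPM.

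**Figure D3:**
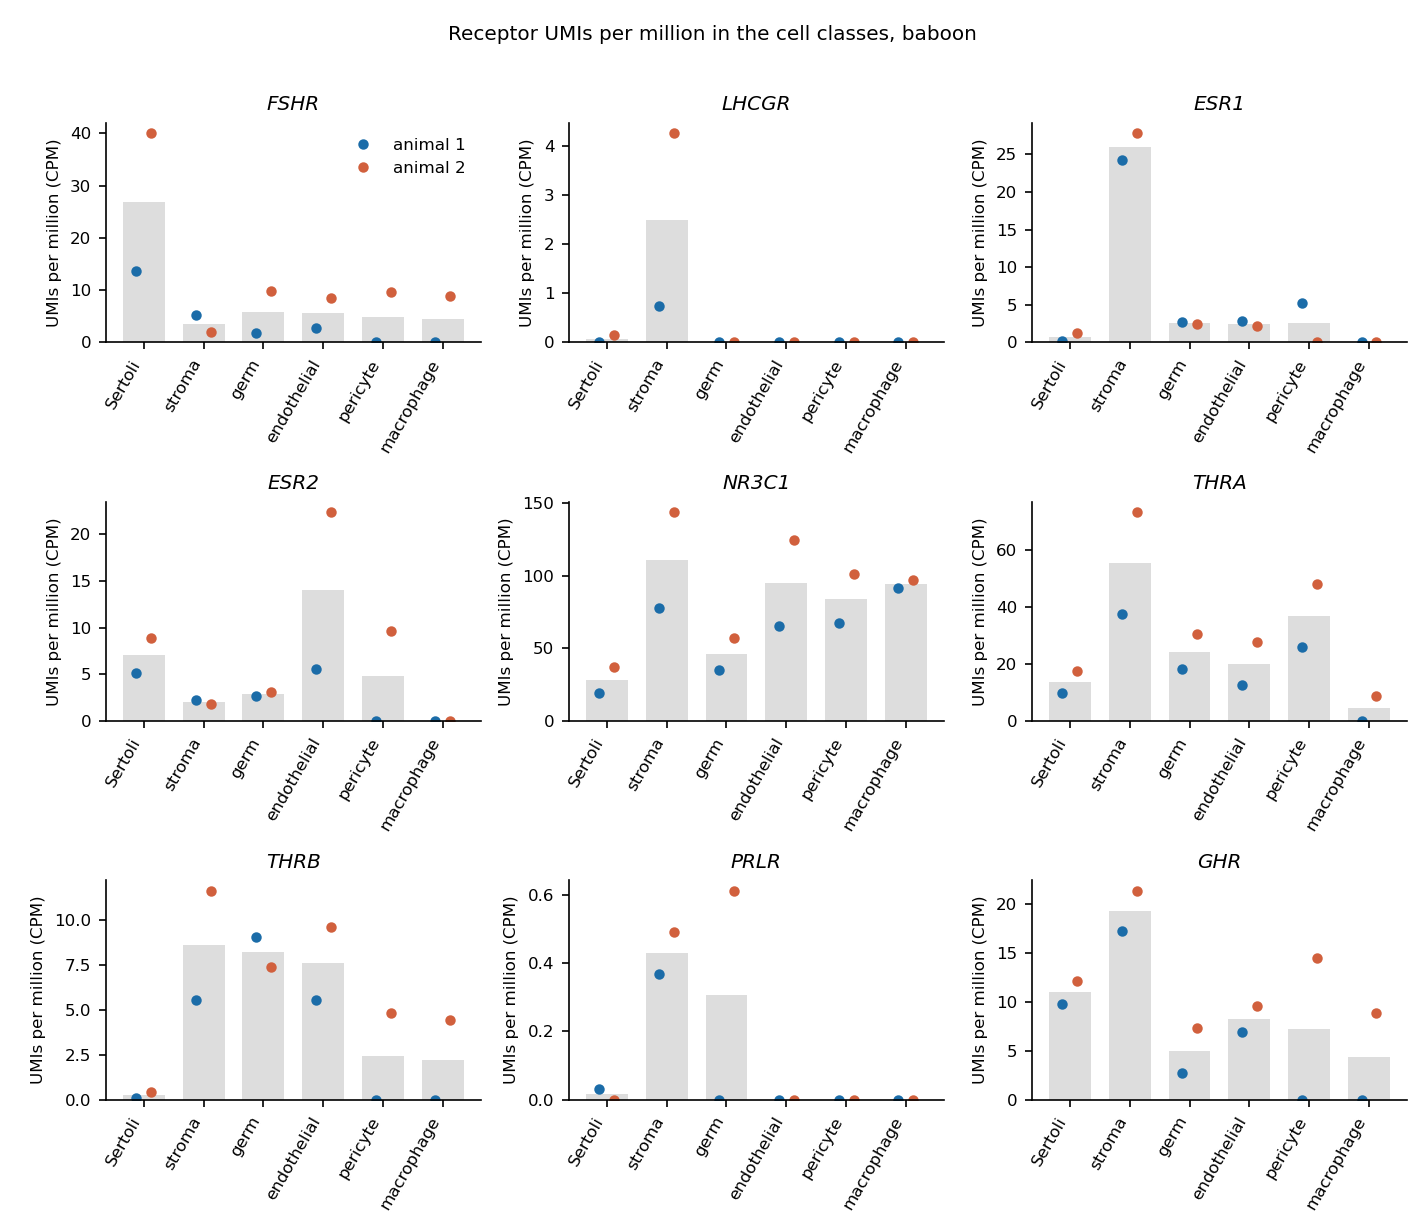
Levels of the 9 receptor genes in the baboon cell classes, in CPM, with a point per animal and a bar for the mean of the 2 animals. FSHR is highest in Sertoli-like cells (13.6 and 40.0), ESR1 in stroma-like cells (24.2 and 27.8), and NR3C1 is lowest in Sertoli-like cells (19.4 and 37.5).

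NR3C1, the glucocorticoid receptor, was seen in every named class and was lowest in Sertoli-like and germ-like cells. It lies at chr5:135962217-136114913 (Panubis1.0) and chr6:140690312-141146718 on the minus strand (Mmul_10), with a pseudogene, LOC114679136, over 70 bases of the same strand. Baboon Sertoli-like cells held 19.4 CPM in animal 1 (19.9 and 18.6 in libraries 1A and 1B) and 37.5 in animal 2, against 66.1 and 124 in all other cells. Rhesus Sertoli-like cells held 16.6 in animal 1 and 22.8 in animal 2 (23.4 and 22.2 in libraries 2A and 2B), against 70.2 and 53.5. Sertoli-like cells lay below all other cells in each animal.

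The difference was -1.70 ± 0.29 on the log2 scale in the rhesus monkey (SE, edgeR adjusted p = 0.0313) and -1.56 ± 0.47 in the baboon (edgeR adjusted p = 0.0765, and 0.00123 with the animal as a block). Stroma-like cells held 77.9 and 144 CPM in the baboon and 81.2 and 50.3 in the rhesus monkey. Their log2 values were 2.00 ± 0.42 (SE, edgeR adjusted p = 0.0520, and 3.64e-05 with the animal as a block) and 1.29 ± 0.36 (edgeR adjusted p = 0.108, and 0.0394 with the animal as a block). In the baboon, endothelial-like cells (65.4 and 125 CPM), macrophage-like cells (91.7 and 97.1, with the lymphoid markers given above) and pericyte-like cells (67.3 and 101) followed, and the order of these 4 classes did not hold in both animals. In the rhesus monkey the 4 highest classes were peritubular myoid-like (130 and 76.8 CPM), pericyte-like (82.2 and 92.3), endothelial-like (79.5 and 86.8) and stroma-like cells, again with overlapping ranges.

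In germ-like cells NR3C1 was low in the rhesus monkey. Rhesus germ-like cells held 20.3 and 10.2 CPM on 27 and 6 UMIs, lower by a log2 value of -1.88 ± 0.43 (SE, edgeR adjusted p = 0.0186). Baboon germ-like cells held 35.2 and 56.9 CPM against 25.4 and 55.7 in all other cells. The log2 value in the fit was yet -0.26 ± 0.44 (SE, edgeR adjusted p = 0.690, and 0.481 with the animal as a block), since its sign turned with the scaling between classes. No test was made between the species. Of thinned rhesus cells, 1.62% of Sertoli-like and 6.14% of stroma-like cells had an NR3C1 UMI, and of baboon cells 2.50% and 12.3%. Within rhesus Sertoli-like cells, cluster 3 again held more (27.4 and 27.0 CPM) than cluster 1 (7.10 and 15.6).

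THRA, thyroid hormone receptor alpha, was seen in every named class, and in each animal its level in stroma-like cells was above that in Sertoli-like cells. It lies at chr17:47165816-47196517 (Panubis1.0) and chr16:51198434-51230852 on the plus strand (Mmul_10). Stroma-like cells held 37.5 and 73.5 CPM in the baboon (44.5 and 25.2 in libraries 1A and 1B), against 10.1 and 18.5 in all other cells. Rhesus stroma-like cells held 84.9 and 95.4 CPM, against 48.7 and 60.7. Each animal's stroma-like value exceeded that of its other cells. The log2 value was 2.14 ± 0.44 in the baboon (SE, edgeR adjusted p = 0.0497), just inside the threshold of 0.05. The call was lost with DESeq2-type size factors in edgeR (adjusted p = 0.0525) and at resolutions of 0.3 and 0.8 (0.0514 and 0.0508). It was also lost without library 1A (1.96, edgeR adjusted p = 0.0874) and with the UMI cutoff alone (1.48, edgeR adjusted p = 0.0820).

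THRA in rhesus stroma-like cells had a log2 value of 0.88 ± 0.23 (SE, edgeR adjusted p = 0.0942, and 0.0199 with the animal as a block). Sertoli-like cells held 9.66 and 17.6 CPM in the baboon and 41.7 and 55.2 in the rhesus monkey. Their log2 values were -1.50 ± 0.50 (SE, edgeR adjusted p = 0.0953, and 0.00216 with the animal as a block) and -0.83 ± 0.23 (edgeR adjusted p = 0.0809, and 0.0135 with the animal as a block). Rhesus germ-like cells, at 83.4 and 92.0 CPM, lay close under stroma-like cells. In both animals they were above all other cells, which held 63.3 and 78.6 CPM. The log2 value in the fit was yet -0.02 ± 0.26 (SE, edgeR adjusted p = 0.966, and 0.962 with the animal as a block). The highest rhesus mean was that of peritubular myoid-like cells (65.2 and 182 CPM, on 3 and 26 UMIs). Rhesus pericyte-like cells held 95.2 and 54.0 CPM, and the ranges of these classes overlapped that of stroma-like cells. THRA was abundant in rhesus droplets without cells, at 59.1 CPM, and free RNA could have given up to 16.8% of its UMIs in rhesus Sertoli-like cells.

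THRB, thyroid hormone receptor beta, was sparse and nearly missing from baboon Sertoli-like cells. It lies at chr2:170229647-170595255 (Panubis1.0) and chr2:23172736-23544648 on the plus strand (Mmul_10), where LOC114676232, annotated as protein-coding on the same strand, overlaps it and could share reads with it. Baboon Sertoli-like cells held 2 and 15 UMIs (0.0644 and 0.437 CPM), against 5.99 and 10.3 CPM in all other cells. Baboon stroma-like cells held 5.51 and 11.6 CPM, germ-like cells 9.03 and 7.34, and endothelial-like cells 5.56 and 9.60. These 3 classes overlapped each other and all lay above Sertoli-like cells in both animals. THRB was lower in baboon Sertoli-like cells by a log2 value of -4.81 ± 0.95 (SE, edgeR adjusted p = 0.0274, and 0.0512 at the resolution of 0.8) and higher in stroma-like cells by 3.70 ± 0.63 (edgeR adjusted p = 0.0357). In both comparisons THRB passed the filter on low counts only because of the sums where it is high. Both p-values thus describe these counts and are no independent support. No THRB UMI was seen in baboon droplets without cells.

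Among rhesus cells the animals went opposite ways. Stroma-like cells held 5.53 CPM in animal 1 (53 UMIs, exact 95% Poisson interval 4.14 to 7.23) and 0.708 in animal 2 (10 UMIs, 0.339 to 1.30). Endothelial-like cells held 2.41 CPM in animal 1 (1 UMI, 0.0610 to 13.4) and 17.6 in animal 2 (38 UMIs, 12.5 to 24.2), with 18.3 and 16.9 in libraries 2A and 2B. The stroma-like value was thus higher in animal 1, and the endothelial-like counts of animal 1 are too few to place. Against all other cells the log2 value was 0.29 ± 0.99 for stroma-like cells (SE, edgeR adjusted p = 0.896, and 0.859 with the animal as a block, where the sign turned). For endothelial-like cells it was 2.39 ± 1.12 (SE, edgeR adjusted p = 0.310, and 0.0316 with the animal as a block). The endothelial-like value rests on animal 2, since in animal 1 the ratio to all other cells was -0.10 on the log2 scale.

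**Figure D4:**
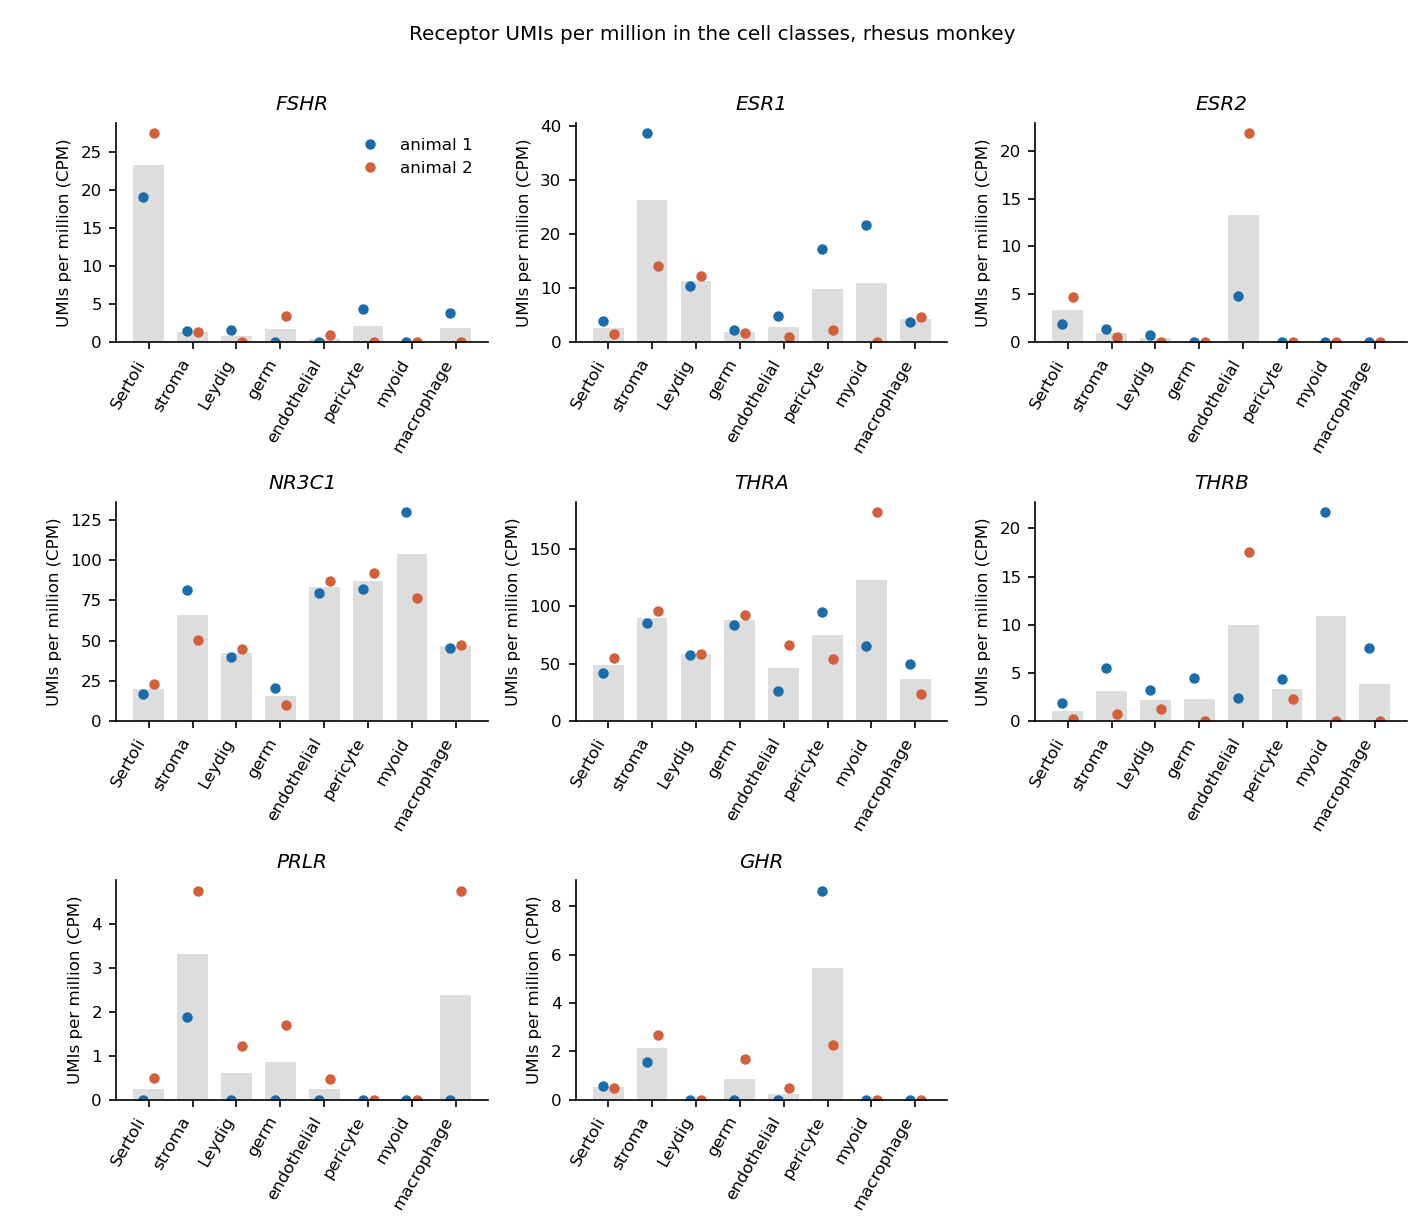
Levels of the 8 receptor genes in the rhesus cell classes, in CPM, with a point per animal and a bar for the mean of the 2 animals. FSHR is highest in Sertoli-like cells (19.0 and 27.4), and ESR2 and THRB in endothelial-like cells stand at 21.8 and 17.6 in animal 2 and at 4.82 and 2.41 in animal 1, the latter on 2 and 1 UMIs with overlapping counting intervals.

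GHR, the growth hormone receptor, was highest in baboon stroma-like cells and sparse in the rhesus monkey. It lies at chr5:41052378-41352757 (Panubis1.0) and chr6:42354116-42668444 on the plus strand (Mmul_10). Baboon stroma-like cells held 17.3 and 21.4 CPM, Sertoli-like cells 9.82 and 12.2, and endothelial-like cells 6.95 and 9.60. This order held in both animals. The log2 value was 1.03 ± 0.28 for stroma-like cells (SE, edgeR adjusted p = 0.0842, and 0.00470 with the animal as a block). For Sertoli-like cells it was -0.20 ± 0.35 (SE, edgeR adjusted p = 0.740, and 0.498 with the animal as a block). Within the baboon stroma-like class, cluster 1 held 18.7 and 26.7 CPM and cluster 7, which held the LHCGR cells, 13.0 and 9.52. Rhesus stroma-like cells held 1.56 and 2.69 CPM, and Sertoli-like cells 0.573 and 0.499 on 5 and 4 UMIs. In rhesus Leydig-like cells 0 UMIs of 2071287 allow up to 1.45 CPM.

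PRLR, the prolactin receptor, was hardly detected in the baboon. It lies at chr5:33874473-34016916 (Panubis1.0) and chr6:34845661-35015954 on the minus strand (Mmul_10). Only 6 UMIs were seen in 23046 baboon cells, 4 of them in stroma-like cells. Of 94 rhesus UMIs 85 were in stroma-like cells, 18 in animal 1 (1.88 CPM) and 67 in animal 2 (4.74 CPM, with 5.82 and 3.56 in libraries 2A and 2B), and other classes held 0 and 0.705 CPM in sum. Stroma-like cells thus held most of this receptor in both animals. PRLR passed the filter on low counts there only because of the stroma-like sums, where it is high. Its fitted value (log2 3.42 ± 1.24, SE) is thus a description of these counts and carries no test. Cluster 0, the largest rhesus stroma-like cluster, held 2.70 and 6.32 CPM.

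Taking the receptors class by class, some passed the filter on low counts and the threshold and others did not. In baboon Sertoli-like cells 7 of the 9 genes passed the filter, LHCGR and PRLR not, and 3 were called, where 23.7% of all genes tested were. Of these 1 was higher, where 6.46% of genes were, and 2 were lower, where 17.2% of genes were. With the animal as a block 6 were called, where 48.5% of all genes were. In baboon stroma-like cells 8 passed the filter, LHCGR among them in this class alone. Of these 3 were called, all higher, where 9.91% of all genes were called and 7.00% were higher. With the block all 8 were, where 41.1% of genes were, but LHCGR is among the 8 and carries no test. In rhesus Sertoli-like cells all 8 passed the filter, and 2 were called where 9.30% of genes were, 1 higher (4.09% of genes) and 1 lower (5.21%), and 6 with the block (32.7% of genes). In rhesus stroma-like cells 1 of 8 was called, lower, where 2.36% of genes were called and 1.22% were lower, and 5 with the block (25.8%). The count in each of these classes is to be read against its own background. Some called genes passed the filter only because of the sums where they are high. Among them are ESR1 and THRB in both baboon classes and, with the block, PRLR in both rhesus classes. Their calls are descriptions of these counts.

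In baboon germ-like cells 7 genes passed the filter and edgeR called 0, where 27.2% of all genes were called. There 4 had an unadjusted p under 0.05, DESeq2 called 1 and the block 4 (48.4% of genes). In rhesus germ-like cells all 8 passed and 2 were called, both lower, where 28.6% of genes were called and 14.0% were lower, and 3 with the block (40.2% of genes). Endothelial-like cells gave 0 calls by edgeR of 7 genes in the baboon, with 3 under an unadjusted p of 0.05, 0 by DESeq2 and 3 with the block, where 11.7% of all genes were called, and 29.7% with the block. Rhesus endothelial-like cells gave 0 of 7, with 4 under an unadjusted p of 0.05, 1 by DESeq2 and 5 with the block, where 3.72% and 16.7% of genes were called. Leydig-like cells gave 0 of 8 by edgeR, with 1 under an unadjusted p of 0.05, 0 by DESeq2 and 1 with the block, where 0.0407% and 12.7% of genes were called. The median log2 value of the receptors was -1.50 in baboon and -1.68 in rhesus Sertoli-like cells and 2.07 and 1.09 in stroma-like cells, beside medians of 0.00 and 0.00, and -0.04 and -0.01, over all genes tested. These medians include genes that passed the filter only because of the sums where they are high. Among them are ESR1 and THRB in both baboon classes, LHCGR in baboon stroma-like cells and PRLR in both rhesus classes. The medians thus depend on the filter, describe these counts and show no shift of the receptors as a set. The counts by DESeq2 and by unadjusted p are given without a share over all genes and have no background to be read against.

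**Figure D5:**
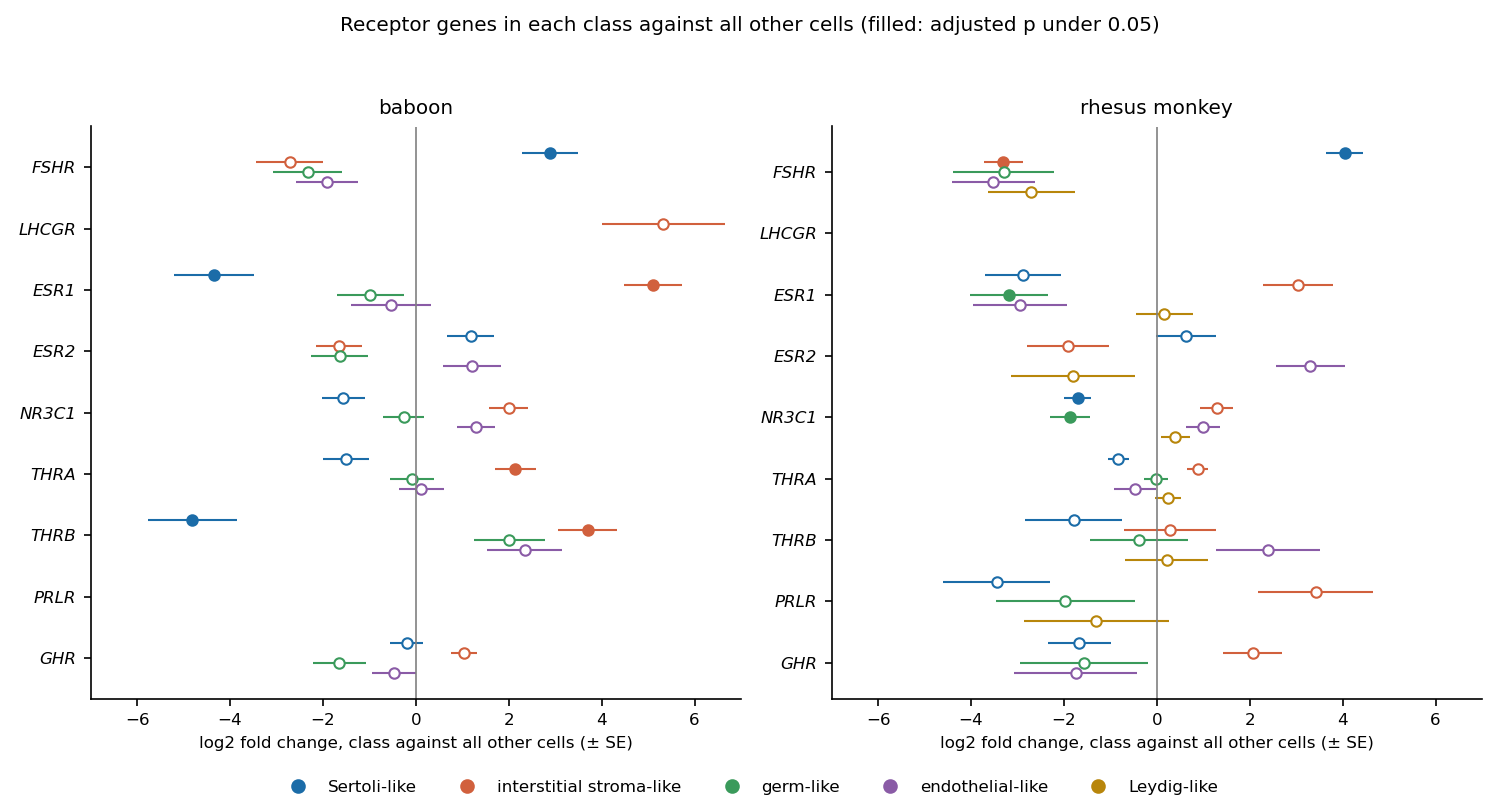
Log2 fold change of each receptor gene in each class against all other cells, with its standard error, by species. Filled points pass an adjusted p of 0.05 in edgeR's test, as FSHR does in Sertoli-like cells of the baboon (2.89) and the rhesus monkey (4.04). Genes that did not pass the filter, LHCGR in the rhesus monkey and genes at 0 UMIs in a class have no point.

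Other genes of the hormone pathways were counted from lists. Unlike the receptors, these genes were not left out of the clustering that formed the classes. Their p-values and calls, here and below, thus describe these groups and are no independent support. In baboon Sertoli-like cells the gonadotropin signalling list (G protein, adenylyl cyclases, protein kinase A and phosphodiesterases) had 1 gene higher and 7 lower of 21 tested, where 6.46% and 17.2% of all genes were, with the cyclases and phosphodiesterases ADCY4 (-5.64), PDE4B (-5.37) and PDE4D (-5.30) as the largest log2 values. In rhesus Sertoli-like cells none of 18 passed, with 5 in the blocked fit, where 32.7% of all genes did. The coactivator NCOA2, which binds steroid receptors, was higher in Sertoli-like cells of the baboon (1.54, edgeR adjusted p = 0.0205) and of the rhesus monkey (1.79, edgeR adjusted p = 0.0246). FKBP4, a co-chaperone of steroid receptors, was lower in both (-5.09, edgeR adjusted p = 0.0152, and -3.55, edgeR adjusted p = 0.0189). In the glucocorticoid list 0 were higher and 3 lower of 15 in the baboon, and 0 and 2 of 14 in the rhesus monkey. The thyroid hormone list had 0 higher and 1 lower of 13 and of 9. Of all genes 17.2% were lower in baboon and 5.21% in rhesus Sertoli-like cells, and the counts of the glucocorticoid and thyroid lists in the baboon are near or under that share.

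Of the growth hormone and prolactin list, baboon Sertoli-like cells had 1 gene higher and 4 lower of 12 and rhesus ones 0 and 4 of 12, beside 6.46% of all genes higher and 17.2% lower in the former and 4.09% and 5.21% in the latter. SOCS2, a growth hormone-induced brake on signalling, was lower in both (-2.75, edgeR adjusted p = 0.0137, and -3.13, edgeR adjusted p = 0.0495). Baboon stroma-like cells had 4 higher and 0 lower of 12, where 7.00% of all genes were higher, with IGF1, the growth factor through which growth hormone acts in many tissues, at 4.73 (edgeR adjusted p = 0.0187). They also had 4 higher and 0 lower of 15 in the glucocorticoid list, among them HSD11B2, which inactivates cortisol (4.13, edgeR adjusted p = 0.0187). CRYM, which binds thyroid hormone in the cytosol, was lower there (-3.03, edgeR adjusted p = 0.0427). In rhesus stroma-like cells 1 gene of all lists passed, SOCS3 (2.97, edgeR adjusted p = 0.0374), where 2.36% of all genes were called. SOCS3 was also the first leading gene of rhesus stroma-like cluster 2, beside ZFP36, FOS and JUN. Whether its level there reflects hormone signalling was not tested.

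Germ-like cells had 0 genes of the growth hormone and prolactin list higher and 5 lower of 12 in the baboon, and 0 and 7 of 12 in the rhesus monkey, where 11.2% and 14.0% of all genes were lower. Some genes were seen mostly in germ-like cells, on few UMIs and with no test given. The adenylyl cyclase ADCY1 stood there at 22.6 and 7.34 CPM in the baboon (25 and 12 UMIs) and at 8.27 and 8.52 in the rhesus monkey (11 and 5 UMIs). DIO1, a deiodinase, stood at 7.22 and 4.28 CPM (8 and 7 UMIs) and at 3.76 and 5.11 (5 and 3 UMIs). The medians of the estrogen list were -1.02 and -1.46 there. In endothelial-like cells ADCY4 stood at 40.3 and 57.6 CPM in the baboon and 36.1 and 180 in the rhesus monkey, against at most 1.62 in Sertoli-like cells. SOCS2 was higher in endothelial-like cells of both species (3.36, edgeR adjusted p = 0.000583, and 3.24, edgeR adjusted p = 0.0459). In Leydig-like cells no gene of these lists passed the threshold, and in the blocked fit 5 of 18 of the gonadotropin signalling list did, where 12.7% of all genes did.

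The genes whose levels ran most like a receptor's were ranked by Pearson's r of log2(CPM + 1) over the sums of each class and animal, 12 sums for the baboon and 16 for the rhesus monkey. The sums share libraries, and r is a description. For FSHR they were SLC4A8 (0.967), SLC16A11 (0.962) and FAM110C (0.959) in the baboon and LAPTM4B (0.919) and HMGN5 (0.915) in the rhesus monkey. For NR3C1 they were CEBPD (0.939), IER2 (0.933) and FKBP5 (0.918) in the baboon and ZFP36 (0.938), PRKCDBP (0.912) and SOCS3 (0.898) in the rhesus monkey. For ESR2 in the rhesus monkey the first was NOS3 (0.907), the endothelial nitric oxide synthase, and in the baboon PRRC2C (0.943). For ESR1 the first was UNC5D (0.964) in the baboon, and CRISPLD2 reached 0.858 in the rhesus monkey. THRA ran with CEP112 (0.986) and ACTR5 (0.828), and THRB with SMOX (0.969) and BHLHE40 (0.759), in the baboon and the rhesus monkey respectively. For GHR in the baboon the first was NHS (0.974).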

How the data were processed

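The authors made the libraries with Chromium 3′ kits, aligned the reads with Cell Ranger (3.1.0) and worked in Seurat (3.2.3), per the labels. The deposited files hold raw UMI counts for every barcode, cells and empty droplets alike. Cells were picked from them by a UMI cutoff set for 5000 expected cells or, from 500 UMIs, by a profile unlike that of empty droplets (adjusted p of 0.01), with at least 200 genes seen. The counts of each library were normalized with sctransform (0.4.2). The 3 libraries of a species were then integrated by anchors and clustered in Seurat (5.3.0, resolution 0.5), and clusters were named from marker lists. The receptor genes were left out of the clustering and of the marker lists, and the genes of the pathway lists were not left out of the clustering. The naming rule was changed once after names were seen, to rank first by how many markers stood among the 10 leading genes, which named the 752 rhesus endothelial-like cells. Doublets (4.43% to 8.93% of a library) were marked and kept. Counts were summed per class and animal (n = 2 animals per species), with both libraries of an animal together, and each class of at least 10 cells per animal was compared with all other cells by edgeR's quasi-likelihood test (4.0.16, TMM, filterByExpr, Benjamini-Hochberg over all genes tested). Nothing is known of the spread beyond these animals. The class and other sums come from the same animals and their deviations correlated at 0.339 to 0.758, so that the animal pairs them, and a fit with it as a block was an alternative, as was DESeq2 (1.42.0). On simulated counts of the same depth, with 200 genes changed by a log2 value of 2, the test found 26.0% of them in the rhesus endothelial-like comparison (12538 genes) and 56.0% to 70.0% in the others. The changed genes were drawn from those above the median count, and the sums were drawn without the pairing by animal. These shares therefore do not apply to sparse receptors. Intervals are exact (95%), with a lower and an upper end. Limits from 0 UMIs bound the level from above alone (95%, 3 counts) and lie below the upper end of such an interval. Both cover counting error only. Free RNA was read from droplets without cells. A class's largest possible share of it came from the marker list that gave the lowest ratio of the class to those droplets. All receptors were named, as were up to 3 called genes of largest change per pathway list and comparison and the 3 genes of most alike pattern (at least 100 UMIs); genes at 0 UMIs in a class or known only by an identifier are not printed. The receptors and gene lists were chosen with earlier results of these data known. Other tools were R 4.3.3, Python 3.11.15 and matplotlib 3.10.9.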

Additional observations from a re-analysis of the deposited data

Results flagged for a closer look

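THRA in endothelial-like cells stood out because the species pointed opposite ways. Its log2 value against all other cells was 0.12 in the baboon (12.5 and 27.7 CPM against 12.1 and 26.2) and -0.47 in the rhesus monkey (26.5 and 66.4 CPM against 65.2 and 80.0). Both animals of each species pointed the same way, and neither value passed the threshold (edgeR adjusted p = 0.915 and 0.655). The difference between the species was not tested.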

How the results depend on the processing

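With 2 animals per species and few receptor UMIs per class, the precision is limited, and a value that missed the threshold does not show equal levels. Counts of receptors called are given as reported first. They include genes that passed the filter only because of the sums where they are high. With the block the share of all genes called also rose in every class, as given above. For the other settings that share is not given, so a changed count is not read as a result about the receptors. In baboon stroma-like cells the counts with the block and with DESeq2 include LHCGR, which carries no test. With the animal as a replicate block they went from 3 to 6 in baboon Sertoli-like, 3 to 8 in stroma-like, 0 to 4 in germ-like and 0 to 3 in endothelial-like cells, and in the rhesus monkey from 2 to 6, 1 to 5, 2 to 3, 0 to 5 and, in Leydig-like cells, 0 to 1. Without the filter on low counts they were 6, 6, 4 and 3 in these baboon classes and 3, 4 and 4 in rhesus stroma-like, germ-like and endothelial-like cells. DESeq2 called 5, 6 and 1 in baboon Sertoli-like, stroma-like and germ-like cells, and 4 and 1 in rhesus stroma-like and endothelial-like cells. At a resolution of 0.8 the baboon counts were 0 in Sertoli-like and 1 in germ-like cells, where 912 cells that were Sertoli-like otherwise got no name and so counted among the other cells. Doublets left out gave 5 in baboon stroma-like cells, the UMI cutoff alone gave 2 in baboon germ-like and 2 in endothelial-like cells, and classing each cell by its own markers gave 5, 2 and 2 in baboon stroma-like, germ-like and endothelial-like cells and 0 and 1 in rhesus stroma-like and endothelial-like cells. Leaving lymphoid-like cells out of every class in the rhesus endothelial-like comparison, chosen after seeing the data, gave 1. The values that changed sign, none of them called, were under the UMI cutoff alone GHR in baboon Sertoli-like cells (0.42), ESR1 (0.46), NR3C1 (0.09) and THRA (0.33) in baboon germ-like cells and ESR1 in baboon endothelial-like cells (1.09). THRA in baboon germ-like cells was 0.25 without library 1A (-0.17 to 0.63 over the libraries left out), and THRB in rhesus stroma-like cells was -0.23 with the block. THRA in rhesus germ-like cells was 0.01 with DESeq2-type size factors, with DESeq2 and without doublets, and 0.18 without library 2A (-0.13 to 0.24 over the libraries left out). With cells classed by their own markers THRB was 0.01 in rhesus germ-like and -0.06 in Leydig-like cells, and ESR1 in Leydig-like cells was -0.22 without library 2B (-0.22 to 0.61 over the libraries left out). The cause of these changes was not tested. Of the other values, 671 kept their side, 84 came to pass the threshold, 11 ceased to, and 59 shares or lone-animal values moved by more than their spread. Leaving out the only library of baboon animal 2 or rhesus animal 1 left 1 animal and no test.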

Other observations

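Hormone genes usually tied to the pituitary were seen in germ-like cells at low counts. PRL, which encodes prolactin, had 4 and 26 UMIs in baboon germ-like cells (3.61 and 15.9 CPM), 0 and 3 in Sertoli-like cells and 0 in the other named baboon classes. Rhesus germ-like cells held 11 and 1 UMIs of LHB, the beta subunit of luteinizing hormone (8.27 and 1.70 CPM), beside 3 and 0 in Sertoli-like, 0 and 3 in endothelial-like and 1 and 1 in stroma-like cells. LHB has near-identical relatives among the chorionic gonadotropin genes, between which the counting could split reads, so its UMIs are uncertain. Both genes passed the filter on low counts through the germ-like cells, so no test is given. Whether these transcripts are translated cannot be read from these data.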
